A study of Sus scrofa with 9 samples.

Results

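Nuclear genes that encode subunits of the respiratory chain and of ATP synthase were followed in the myocardium of 3 female farm pigs. The assay was GRO-seq, in which engaged polymerases extend their transcripts in isolated nuclei with a labelled nucleotide and the labelled RNA is sequenced. An embolization coil had closed the distal left anterior descending artery of each pig, and heart tissue was collected 24 hours later. Each pig gave healthy, border zone and ischemic myocardium, so that there were 3 groups of 3 libraries, and tissue was digested with collagenase before nuclei were taken. The healthy samples are therefore from infarcted hearts and share the coil, the anaesthesia and the 24 hours with the others, and no source used here gives the age of the pigs. Members were all genes of the deposited table whose RefSeq accession maps to a pig symbol that starts with NDUF, SDHA to SDHD, UQCR, COX with a digit, or ATP5, with the transcript position of the longest span standing for a gene. The table held 38 such genes among its 3890 named genes, 14 of complex I, 2 of complex II, 2 of complex III, 11 of complex IV and 9 of complex V. Of these, 35 encode subunits, NDUFAF3 and COX10 encode assembly factors, and NDUFA4L2 is a paralogue of a subunit gene. NDUFA4 and NDUFA4L2, which carry complex I names, were placed with complex IV, where NDUFA4 is known to sit. Other subunit genes were not analysed here.

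In the inner mitochondrial membrane, complexes I and II pass electrons from NADH and succinate to ubiquinone, complex III passes them on to cytochrome c, and complex IV passes them to oxygen. Complexes I, III and IV pump protons while they do so, and complex V, the ATP synthase, uses the proton gradient to make ATP. Heart muscle covers nearly all of its ATP need in this way, and several complex IV subunits exist in a heart and muscle form beside a widespread form.

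Values are RPKM, reads per kilobase of the annotated span, introns included, scaled to library size. Levels can be set side by side between genes only where the annotated span is right and not shared with another position. Of the 38 genes, 37 averaged 0.5 RPKM or more across libraries and were tested, and they are called the measured members here. The exception was NDUFA6, an accessory subunit of complex I, with 0.340 to 0.494 RPKM over the 9 libraries and a mean of 0.435 RPKM. Its listed span of 208765 base pairs holds 879 base pairs of exon. The member just inside the filter was COX10 with a mean of 0.555 RPKM.

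The depth behind the values was uneven. Library totals and reads in this report were inferred from the RPKM values themselves, as described under processing. Library totals ran from 2730083 to 6531658 reads in healthy, from 2187977 to 7005976 in the border zone and from 883656 to 2134087 in ischemic myocardium. The median measured member held 78, 88 and 141 reads in healthy, 52, 126 and 26 in the border zone and 23, 20 and 8 in ischemic replicates 1 to 3. In ischemic replicate 3, 21 of the 37 measured members had fewer than 10 reads. Read numbers from 1 to 30 were multiples of 3 in 32.8% to 53.2% of cases by library, against 33.3% for an even spread, with the highest share in ischemic replicate 3, so reads may not be independent molecules. Counting intervals and floors below cover counting error only.

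**Figure D1:**
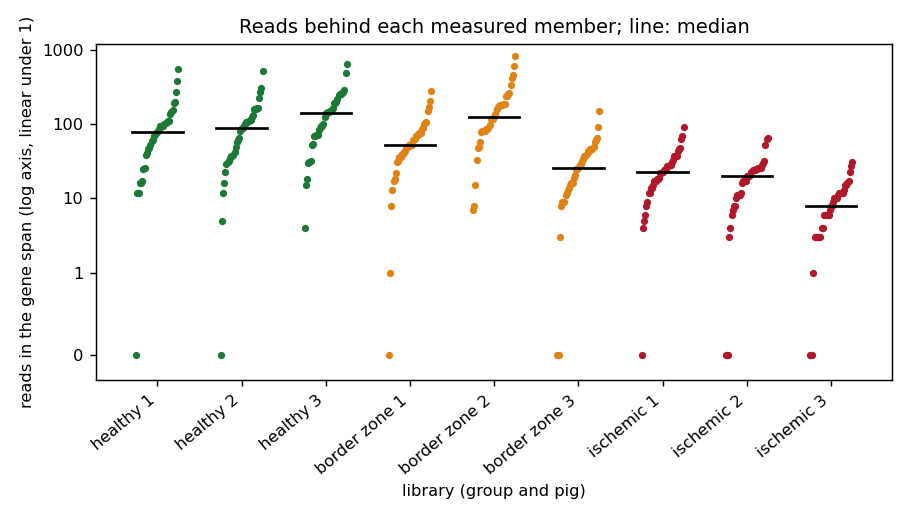
Reads in the annotated span of each of the 37 measured members (points, sorted within a library; log axis, linear under 1) in the 9 libraries, with the library median as a line. The medians are 78 to 141 reads in healthy and 8 to 23 reads in ischemic libraries.

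Ischemic against healthy tissue shows how transcription of these genes differed in the part of the heart that lost its blood supply. Transcription of 13 of the 37 measured members fell and that of 0 rose (limma on log2(RPKM + 0.1), adjusted p under 0.05 over all 2384 positions tested), where 9.1% of all positions fell and 18.5% rose. Complex V gave 6 of the 13, complex IV 3, complex I 2 and complex II 2, while neither measured gene of complex III passed. The median log2 fold change was -1.06 over the measured members and 0.21 over all positions, and 33 of 37 members lay below 0, against 41.4% of all positions. In 21 of 37 members the 3 ischemic libraries all lay below the 3 healthy ones, against 14.9% of all positions, and in 0 of 37 all above, against 28.4%. The measured members were transcribed more than the average position, with a median of 2.46 RPKM against 1.46, and their median SE was 0.46 against 0.37 on the log2 scale. In a separate fit of the 859 positions that averaged 2 RPKM or more, 13 of 22 members fell, against 12.3% of those positions. These are not the same 13 genes. NDUFA11, NDUFB8 and NDUFA4 passed there but not in the main fit, and the called NDUFB6, COX6C and ATP5H averaged under 2 RPKM.

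Heart muscle markers moved the same way in these libraries, and fewer heart muscle cells cannot be told apart from less transcription per cell in bulk tissue. Of 13 measured heart muscle markers 9 fell and 0 rose, with a median log2 fold change of -1.86. The shares over all positions tested, 9.1% lower and 18.5% higher, stand beside each marker count here. The summed level of the 14 listed in the table ran from 520 to 843 RPKM in healthy, 281 to 429 in the border zone and 147 to 355 in ischemic libraries, and CKM was the only marker at 0 in all of them. Leukocyte markers moved the other way, with 11 of 16 higher and 0 lower, and a summed level over 18 genes of 5.06 to 11.0 RPKM in healthy, 24.4 to 43.1 in the border zone and 51.8 to 74.9 in ischemic libraries. Among leukocyte markers, CD163, S100A8, S100A9 and S100A12 were at 0 in every healthy library, and CD163 in all 9. Fibroblast and matrix markers had 6 of 10 higher, at 10.6 to 12.4 RPKM over 11 genes in healthy, 27.4 to 36.2 in the border zone and 39.7 to 60.8 in ischemic libraries, with S100A4 at 0 in the healthy ones. Endothelial markers had 4 of 6 higher, at 8.00 to 10.2, 10.2 to 23.1 and 16.8 to 37.6 RPKM in the same order, and smooth muscle and pericyte markers had 1 of 3 higher, at 41.0 to 48.3, 42.0 to 53.4 and 25.1 to 41.6 RPKM. The part of these shifts in the fall of the respiratory genes was not tested.

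The number of calls rested on single libraries, while the median did not. Without healthy replicates 1, 2 and 3 in turn, 4, 1 and 6 members passed, and without ischemic replicates 1 and 3, 7 and 5 passed. The count over all positions moved too, from 659 to 362 without healthy replicate 2 and to 412 without healthy replicate 3. The share of all positions that fell was 5.96%, 5.45% and 5.54% without healthy replicates 1, 2 and 3. It was 7.89% and 6.54% without ischemic replicates 1 and 3. Without healthy replicate 2 the members' share, 2.7%, lay below that of all positions. The members' median log2 fold change stayed between -1.31 and -0.89 when any 1 library was left out.

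**Figure D2:**
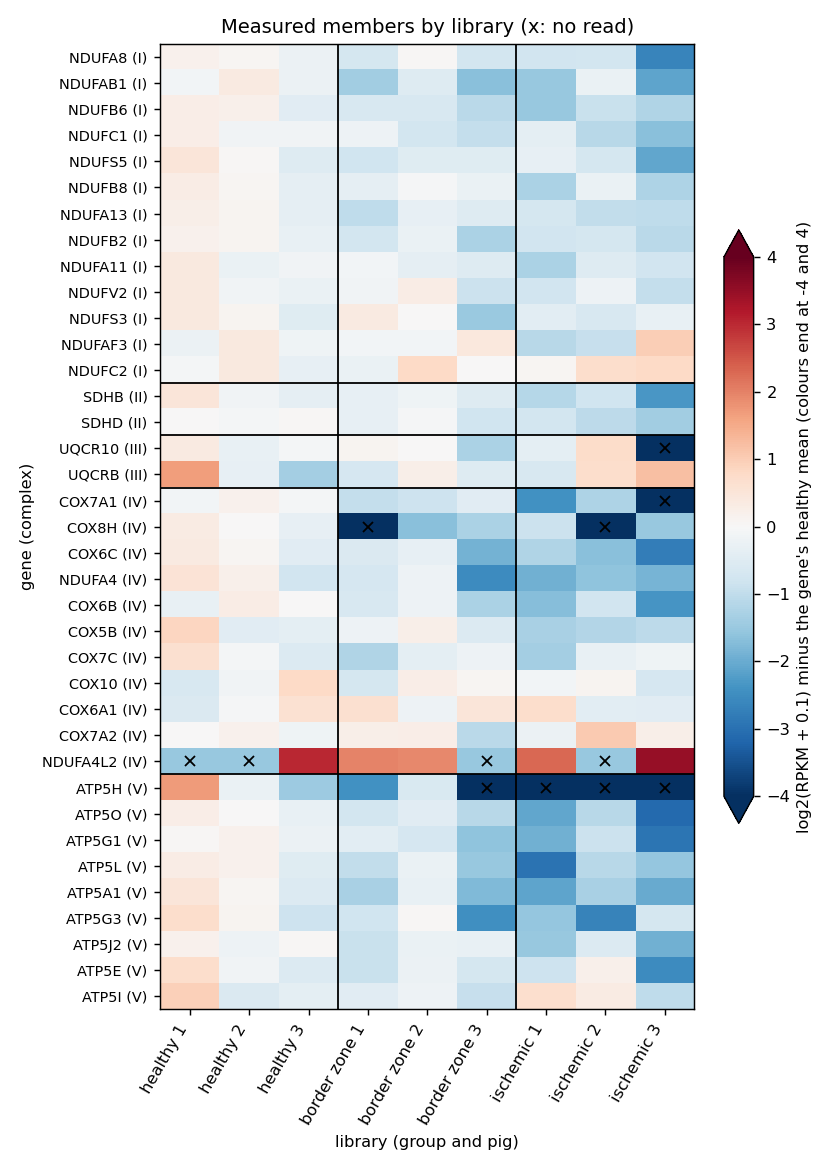
Level of the 37 measured members (rows, by complex) in the 9 libraries (columns), as the difference of log2(RPKM + 0.1) from the gene's healthy mean, with crosses where a library had no read. Blue, for levels below healthy, covers most of the ischemic columns, where 33 of 37 members have a fitted change below 0, and the other 4 are COX7A2, NDUFC2, NDUFA4L2 and UQCRB.

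ATP synthase had the lowest median of the complexes with more than 2 measured genes, at a log2 fold change of -1.80, with 6 of its 9 genes lower in ischemic myocardium. ATP5A1 encodes the alpha subunit of the catalytic head (NM_001185142, chromosome 1 from 105944305 to 105955796). It was transcribed at 17.6, 13.2 and 8.57 RPKM in healthy, 5.1, 10.2 and 3.62 in the border zone and 2.85, 5.03 and 3.05 in ischemic replicates 1 to 3. All ischemic libraries lay below all healthy ones, and border zone overlapped both. ATP5A1 fell 3.49-fold (log2 fold change -1.80 ± 0.44 SE, adjusted p = 0.0198, lower in 3 of 3 pigs).

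ATP5O encodes the protein that joins the head to the peripheral stalk (NM_001044606, chromosome 13 from 207336292 to 207346559). Its level was 5.53, 4.55 and 3.71 RPKM in healthy, 2.72, 3.28 and 2.05 in the border zone and 1, 2.05 and 0.441 in ischemic myocardium. The healthy libraries lay above the other 6 without overlap, and border zone and ischemic libraries came together at 2.05 RPKM. ATP5O fell 4.27-fold (-2.09 ± 0.46, adjusted p = 0.0138), and of the 13 calls it alone held under all 19 other settings, with adjusted p from 0.00292 to 0.0455.

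The c subunits form the rotating ring of the membrane part, and ATP5G1 and ATP5G3 encode the same mature protein. ATP5G1 (NM_001025218, chromosome 12 from 25066825 to 25069482) was at 10.6, 11.6 and 8.76 RPKM in healthy, 7.63, 6.39 and 3.27 in the border zone and 2.65, 5.61 and 1.28 in ischemic replicates. It fell 3.72-fold (-1.90 ± 0.52, adjusted p = 0.0291), with healthy libraries above all others. ATP5G3 was at 12.1, 7.88 and 4.13 RPKM in healthy, 4.15, 7.62 and 1.26 in the border zone and 2.44, 1.08 and 4.51 in ischemic libraries. Its groups overlapped, since ischemic replicate 3 lay above healthy replicate 3, and its log2 fold change of -1.64 ± 0.73 did not pass (adjusted p = 0.133). The difference ATP5G1 minus ATP5G3 on the log2 scale was 0.48 ± 0.63 in healthy and 0.22 ± 2.01 in ischemic myocardium (mean ± SD, n = 3 each, 2-sided exact permutation p = 0.9, where 0.1 is the smallest possible).

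The small membrane subunits of ATP synthase differed among themselves. ATP5L, subunit g, was at 7.15, 6.53 and 4.06 RPKM in healthy, 2.87, 4.74 and 1.95 in the border zone and 0.65, 2.6 and 1.91 in ischemic libraries. It fell 3.66-fold (-1.87 ± 0.52, adjusted p = 0.0301), with no overlap between ischemic and healthy. ATP5J2, subunit f, went from 4.81, 3.68 and 4.39 RPKM over 2.28, 3.5 and 3.46 to 1.43, 2.91 and 1.05, again without overlap between ischemic and healthy. It fell 2.51-fold (-1.33 ± 0.36, adjusted p = 0.0291). ATP5I, subunit e, had 19.4, 6.68 and 7.66 RPKM in healthy, 7.25, 8.67 and 5.23 in the border zone and 16.1, 12.5 and 4.85 in ischemic myocardium. Its groups overlapped fully and its log2 fold change was -0.01 ± 0.54 (adjusted p = 0.996). ATP5E, the epsilon subunit of the head, averaged 5.91 ± 2.74 RPKM in healthy and 3.45 ± 2.78 in ischemic myocardium (-1.04 ± 0.64, adjusted p = 0.261).

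ATP5H, subunit d of the peripheral stalk, passed as well (adjusted p = 0.0151), but on few reads and at a doubtful position. Its longest position (NM_001244684_1, chromosome 16 from 31468351 to 31468912) has no intron, with 561 base pairs of span and of exon, so whether its reads come from this gene or from a near-identical copy is uncertain. It held 16, 5 and 4 reads in healthy, 1, 8 and 0 in the border zone and 0, 0 and 0 in ischemic replicates. A bound took 3 reads summed over the ischemic libraries as the upper limit of a count of 0, and the healthy reads as exact. At this bound ATP5H was 2.73-fold lower, 1.25-fold without healthy replicate 1, 1.33-fold without ischemic replicate 1 and 4.73-fold without healthy replicate 3. Counting error in the healthy reads widens this. The exact 95% counting interval of the ischemic to healthy ratio ran from 0 to 0.485. Its upper end was 0.996 without ischemic replicate 1 and 0.284 without healthy replicate 3. Without healthy replicate 1 it was 1.21, so that interval includes no change. The other position of this accession, on chromosome 12 from 6320537 to 6321034, had the opposite direction, with 6 reads over the healthy and 7 over the ischemic libraries and a log2 fold change of 2.72 ± 1.47 (adjusted p = 0.206). With ATP5H at its bound, the complex V median was -1.64, beside -1.61 for the measured subunits of complex IV.

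Of the 6 complex V calls, 5 were lost when some single healthy or ischemic library was left out. Adjusted p for ATP5A1 was 0.0566 to 0.0624 without healthy replicate 1 or 2 or ischemic replicate 1 or 3, and for ATP5L 0.0513 to 0.0878 without the same libraries. For ATP5G1 it was 0.0606 to 0.0859, and for ATP5J2 0.0611 to 0.0835, without any healthy replicate or ischemic replicate 1 or 3. For ATP5H it was 0.0507 to 0.0599 without healthy replicate 1 or 2, and 0.148 by limma-voom on reads. With only the 2 groups in the fit it was 0.0510 for ATP5G1, 0.0588 for ATP5J2 and 0.0531 for ATP5L.

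**Figure D3:**
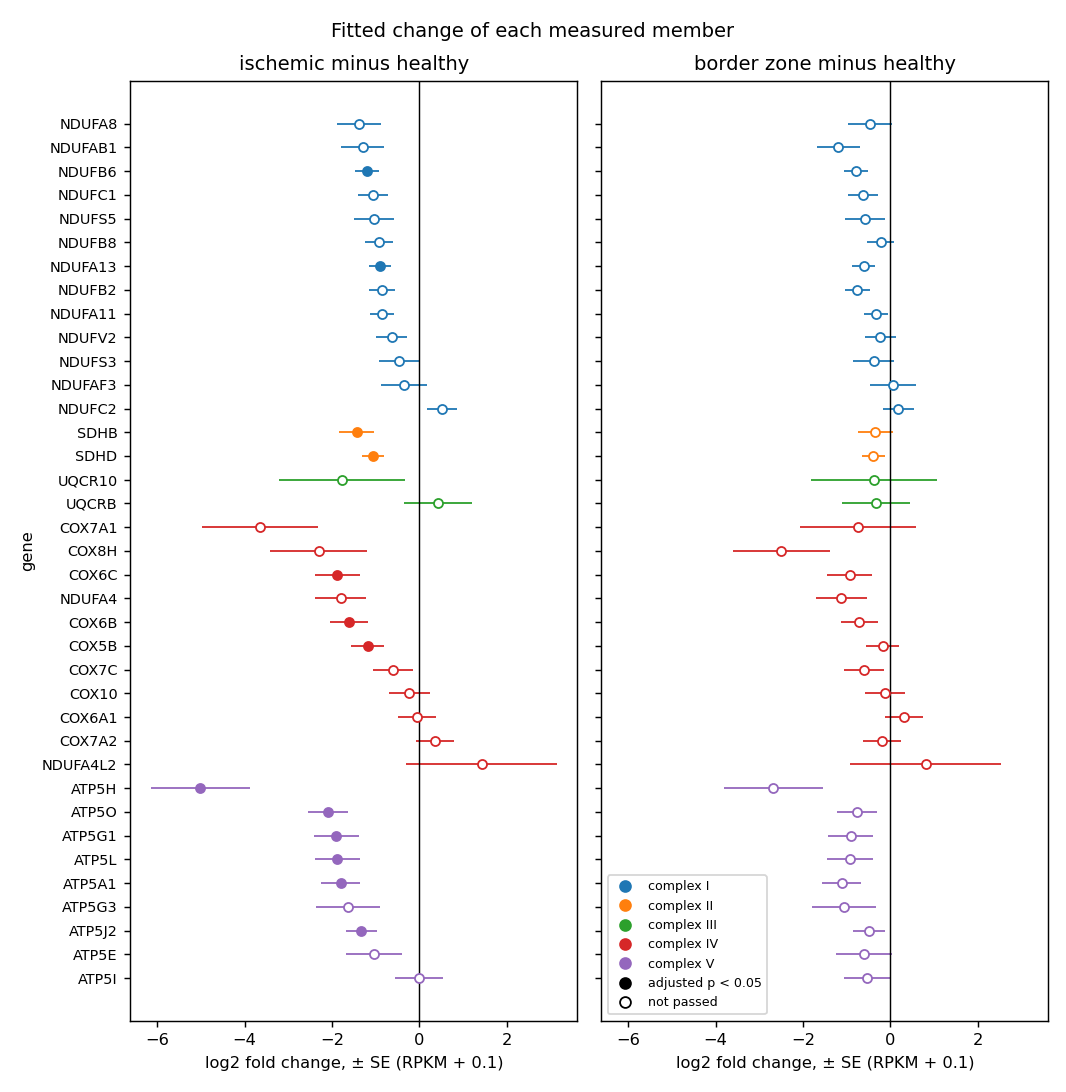
Fitted log2 fold change (± SE, RPKM + 0.1) of the 37 measured members in ischemic minus healthy (left) and border zone minus healthy (right), which share the healthy libraries; filled points have an adjusted p under 0.05. The 13 filled points are all left of 0 in the ischemic panel and there are 0 in the border zone panel.

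Complex IV, cytochrome c oxidase, had 3 of 11 measured genes lower in ischemic myocardium, each a nuclear-encoded subunit around the catalytic core. COX6C (NM_001097473, chromosome 4 from 39992179 to 40005767) was at 2.97, 2.41 and 1.62 RPKM in healthy, 1.49, 1.76 and 0.538 in the border zone and 0.931, 0.645 and 0.25 in ischemic replicates. It fell 3.66-fold (-1.87 ± 0.52, adjusted p = 0.0301). COX6B (NM_001097497, chromosome 6 from 40548763 to 40559158) was at 3.03, 4.6 and 3.8 RPKM in healthy, 2.36, 3.27 and 1.49 in the border zone and 1.08, 2.19 and 0.653 in ischemic replicates. It fell 3.04-fold (-1.60 ± 0.43, adjusted p = 0.0281), and in both genes healthy and ischemic libraries did not overlap. COX5B had 14.2, 5.64 and 6 RPKM in healthy, 6.84, 9.14 and 5.3 in the border zone and 3.1, 3.39 and 3.75 in ischemic libraries. Its ischemic libraries lay below the other 6, and it fell 2.26-fold (-1.18 ± 0.38, adjusted p = 0.0496). That call was lost without any of the 9 libraries (adjusted p from 0.0573 to 0.12), with pig as a block (0.0604), with pseudocount 1 (0.0579), without a filter (0.0727), by limma-voom (0.178) and with only the 2 groups in the fit (0.0842). COX6B was lost without healthy replicate 2 or 3 or ischemic replicate 1 or 3 (0.0730 to 0.0901), and COX6C without any healthy replicate or ischemic replicate 3 (0.05005 to 0.0878).

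COX7A1 encodes the heart and muscle form of subunit 7a and COX7A2 the widespread form. COX7A1 (NM_214411, chromosome 6 from 40921421 to 40922916) was at 14.5, 17.6 and 14.5 RPKM in healthy, 7.91, 8.59 and 11.3 in the border zone and 2.82, 6.45 and 0 in ischemic replicates. The 3 groups did not overlap, with 59, 90 and 142 reads in healthy, 42, 90 and 37 in the border zone and 9, 11 and 0 in ischemic replicates. The fitted log2 fold change of -3.65 ± 1.33 did not pass (adjusted p = 0.0756), but passed without ischemic replicate 3 (adjusted p = 0.0193) and ischemic replicate 2 (0.0253), and by limma-voom on reads (0.0062). It also passed with pseudocount 1 (0.0250) and under quantile normalization (0.0428). COX7A1 passed under none of the other settings, among them pig as a block and only the 2 groups in the fit. Over pooled reads COX7A1 was 4.77-fold lower in ischemic than in healthy libraries (20 against 291 reads, exact 95% counting interval 3.03 to 7.92). With 1 library left out it was 3.76-fold (without ischemic replicate 3) to 7.69-fold lower (without ischemic replicate 2). COX7A2 was at 1.43, 1.62 and 1.24 RPKM in healthy, 1.69, 1.71 and 0.617 in the border zone and 1.19, 3.02 and 1.7 in ischemic replicates, with overlapping groups and a log2 fold change of 0.35 ± 0.44 (adjusted p = 0.587). COX7A1 exceeded COX7A2 by 3.36 ± 0.10 on the log2 scale in healthy, and by 2.81 ± 1.03 in the border zone (mean ± SD, n = 3 each). The 3 healthy differences of 3.25, 3.36 and 3.45 lay above the ischemic ones of 1.17, 1.07 and -4.17 (2-sided exact permutation p = 0.1, the smallest possible with 3 against 3). The last value is set by the pseudocount of 0.1, since ischemic replicate 3 had 0 reads of COX7A1.

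COX8H encodes the heart form of subunit 8 (NM_001097500, chromosome 2 from 162153945 to 162155476). It was at 2.87, 2.29 and 1.8 RPKM in healthy, 0, 0.653 and 0.896 in the border zone and 1.22, 0 and 0.739 in ischemic libraries. The healthy libraries lay above all others, and the change to ischemic did not pass (-2.31 ± 1.12, adjusted p = 0.161, and 0.0466 with pseudocount 1). COX8H rested on 42 healthy and 5 ischemic reads, and its span lies inside 2 positions of the other strand, one of them IFITM3, so with the strand setting not given the reads cannot be assigned with certainty.

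NDUFA4, the complex IV subunit with a complex I name, was at 14.3, 11.2 and 5.73 RPKM in healthy, 6.07, 8.46 and 1.63 in the border zone and 2.48, 3.13 and 2.59 in ischemic replicates. Ischemic and healthy libraries did not overlap, the log2 fold change was -1.80 ± 0.59 (adjusted p = 0.0515), and the change passed with a pig term in the fit (adjusted p = 0.0241), by limma-voom (0.0414) and without border zone replicate 2 (0.0452) or 3 (0.0157). It also passed with pseudocount 1 (0.0486), the filter at 2 RPKM (0.0347), libraries scaled to the same median (0.0348), quantile normalization (0.0342) and only the 2 groups in the fit (0.0263). NDUFA4L2, its paralogue and a known target of the hypoxia factor HIF1A, was at 0, 0 and 2.17 RPKM in healthy, 1.03, 0.977 and 0 in the border zone and 1.28, 0 and 3.1 in ischemic replicates. Its span lies wholly inside a position of LEP on the same strand, so its reads cannot be assigned with certainty, and its other position, also on chromosome 5, averaged 0.435 RPKM. In 4 of the 9 libraries no read lay in the longer span, the groups overlapped and the log2 fold change was 1.43 ± 1.72 (adjusted p = 0.571).

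The other complex IV genes showed no call. COX7C, a small subunit with the highest mean of the complex, was at 23.4, 14.2 and 10.4 RPKM in healthy, 6.46, 11.5 and 13.1 in the border zone and 5.79, 12.4 and 13.5 in ischemic replicates (-0.61 ± 0.45, adjusted p = 0.355). COX6A1, the widespread form of subunit 6a, averaged 4.5 ± 1.91 RPKM in healthy, 5.44 ± 1.55 in the border zone and 4.41 ± 2.24 in ischemic myocardium (-0.05 ± 0.43, adjusted p = 0.943). COX10, which makes a precursor of the haem of complex IV, averaged 0.634 ± 0.385 and 0.489 ± 0.153 RPKM in healthy and ischemic myocardium (-0.23 ± 0.47, adjusted p = 0.749). It has 3 positions in the table, and none of the other 2 passed.

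**Figure D4:**
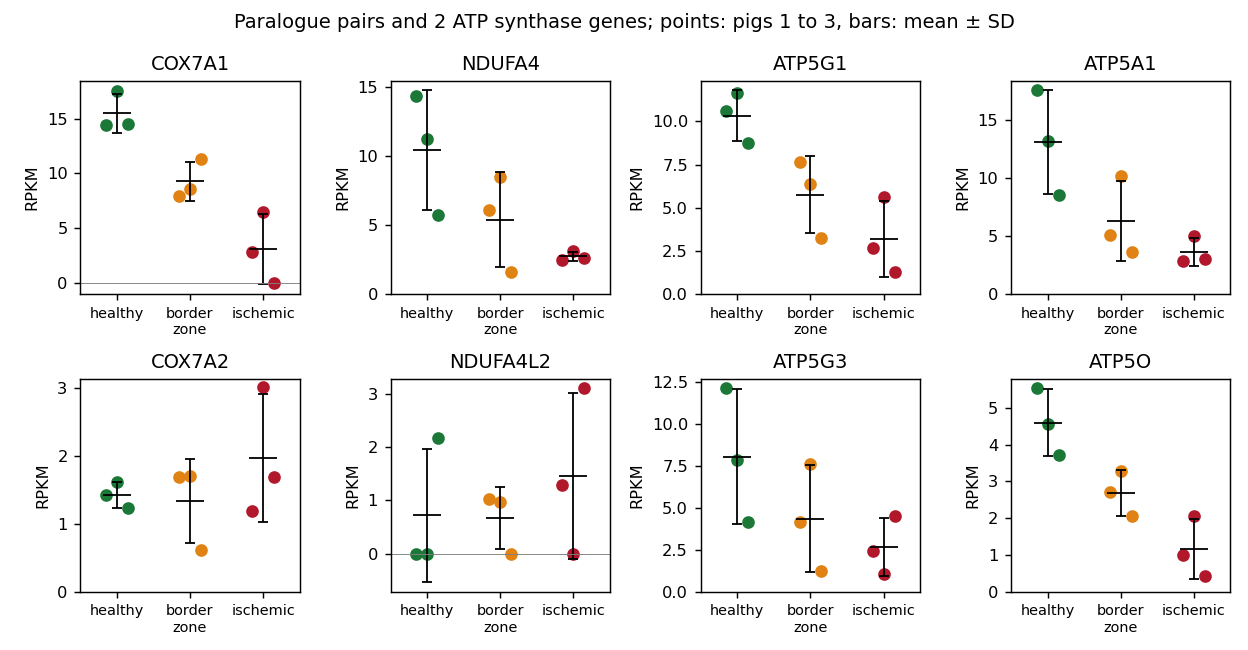
RPKM of 3 paralogue pairs and of ATP5A1 and ATP5O in the 3 groups, with points for pigs 1 to 3 from left to right and bars for the mean ± SD. COX7A1 runs from 14.5 to 17.6 RPKM in healthy and from 0 to 6.45 in ischemic libraries, while COX7A2 overlaps between the groups.

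Complex I, NADH dehydrogenase, had 2 calls among 13 measured genes, with a median log2 fold change of -0.90. NDUFB6, an accessory subunit of the membrane arm (NM_001044554, chromosome 10 from 38102744 to 38118407), was at 3.16, 2.98 and 1.86 RPKM in healthy, 1.62, 1.63 and 1.17 in the border zone and 0.838, 1.34 and 1.08 in ischemic replicates. The healthy libraries lay above the other 6, and NDUFB6 fell 2.31-fold (-1.21 ± 0.28, adjusted p = 0.0157, and 0.0579 without healthy replicate 2). NDUFA13, an accessory subunit also known as GRIM19 (NM_001244646, chromosome 2 from 58287586 to 58296458), was at 3.84, 3.49 and 2.48 RPKM in healthy, 1.56, 2.56 and 2.22 in the border zone and 1.95, 1.58 and 1.53 in ischemic replicates. It fell 1.87-fold without overlap between ischemic and healthy (-0.90 ± 0.26, adjusted p = 0.0325). The NDUFA13 call was lost without healthy replicate 1 or 2 or ischemic replicate 2 or 3 (adjusted p from 0.0636 to 0.101), by limma-voom (0.127) and with only the 2 groups in the fit (0.0510).

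A group of accessory complex I genes lay just over the threshold, and all of them but NDUFA11 passed once pig was a block in the fit. NDUFB8, the complex I subunit with the highest mean, was at 5.21, 4.47 and 3.3 RPKM in healthy, 3.32, 4.11 and 3.5 in the border zone and 1.72, 3.49 and 1.73 in ischemic replicates (-0.93 ± 0.32, adjusted p = 0.0589, blocked 0.0439). Its healthy and ischemic ranges overlapped through healthy replicate 3 and ischemic replicate 2. NDUFC1 had -1.05 ± 0.35 (adjusted p = 0.0534, blocked 0.0144), NDUFB2 had -0.85 ± 0.29 (0.0579, blocked 0.022), NDUFA8 had -1.38 ± 0.50 (0.0735, blocked 0.0401) and NDUFAB1, the mitochondrial acyl carrier protein, had -1.30 ± 0.49 (0.0823, blocked 0.0158). In these 4 genes the ischemic libraries all lay below the healthy ones. Some of them also passed when 1 library was left out, NDUFA8, NDUFAB1 and NDUFB8 without ischemic replicate 2 (adjusted p of 0.0481, 0.0152 and 0.0115), NDUFC1 without ischemic replicate 1 (0.0222) and NDUFB2 without border zone replicate 2 (0.0442) or 3 (0.0409). NDUFA11, an accessory subunit of the membrane arm, was at 4.15, 2.58 and 2.8 RPKM in healthy, 2.86, 2.4 and 2.12 in the border zone and 1.22, 2.16 and 1.81 in ischemic replicates (-0.84 ± 0.28, adjusted p = 0.0519, and 0.036 without ischemic replicate 2). Both with libraries scaled to the same median and under quantile normalization, NDUFA8, NDUFB2, NDUFB8, NDUFC1 and NDUFA11 passed (adjusted p from 0.0149 to 0.0442). NDUFAB1 did not. With the filter at 2 RPKM, NDUFA11 (0.0423) and NDUFB8 (0.0450) passed too.

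The remaining complex I genes did not pass. The core subunit NDUFS3 averaged 2.05 ± 0.62 RPKM in healthy and 1.42 ± 0.183 in ischemic myocardium (-0.46 ± 0.46, adjusted p = 0.494), and the core subunit NDUFV2, which holds an iron-sulfur cluster, averaged 1.62 ± 0.434 and 1.01 ± 0.309 (-0.63 ± 0.35, adjusted p = 0.21). The accessory subunit NDUFS5 had -1.04 ± 0.45 (adjusted p = 0.122). NDUFC2, another accessory subunit, was the only measured complex I gene with a fitted change above 0, at 1.02 ± 0.294 RPKM in healthy and 1.51 ± 0.406 in ischemic myocardium (0.52 ± 0.35, adjusted p = 0.303). Its other position, also on chromosome 9, gave 0.27 ± 0.36. The assembly factor NDUFAF3 averaged 4.57 ± 1.12 and 4.41 ± 3.88 RPKM, with 2.04, 2.29 and 8.89 RPKM in the ischemic replicates (-0.35 ± 0.52, adjusted p = 0.65, and -1.02 with adjusted p = 0.0481 without ischemic replicate 3, where 9 reads gave the value).

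Both measured genes of complex II, succinate dehydrogenase, fell. SDHB, its iron-sulfur subunit (NM_001104953, chromosome 6 from 69991035 to 70021085), was at 4.64, 2.99 and 2.52 RPKM in healthy, 2.59, 2.87 and 2.27 in the border zone and 1.42, 1.84 and 0.565 in ischemic replicates. The ischemic libraries lay below the other 6, and SDHB fell 2.7-fold (-1.43 ± 0.40, adjusted p = 0.0322). SDHD, a membrane anchor (NM_001097516, chromosome 9 from 44632268 to 44645249), was at 2.96, 2.77 and 2.97 RPKM in healthy, 2.3, 2.81 and 1.62 in the border zone and 1.7, 1.35 and 1.05 in ischemic replicates. It fell 2.08-fold (-1.06 ± 0.25, adjusted p = 0.0184), with ischemic below healthy in every pair of libraries. Adjusted p for SDHB was 0.0514 to 0.0953 without any healthy replicate, border zone replicate 1 or ischemic replicate 1 or 3, 0.0506 without a filter and 0.0755 with only the 2 groups in the fit, and for SDHD 0.0532 to 0.0556 without healthy replicate 2 or 3 or ischemic replicate 3.

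Complex III had 2 measured genes, and neither separated the groups. UQCR10, a small subunit, was at 6.28, 3.96 and 4.59 RPKM in healthy, 5.23, 4.94 and 1.96 in the border zone and 3.68, 8.14 and 0 in ischemic replicates. Its log2 fold change of -1.76 ± 1.44 (adjusted p = 0.403) turned to 0.17 without ischemic replicate 3, which had 0 reads. UQCRB, another small subunit, had the highest level of the measured members, at 81.7, 20 and 9.86 RPKM in healthy, 15.7, 30 and 17.7 in the border zone and 16.1, 41.4 and 58.3 in ischemic replicates (0.42 ± 0.78, adjusted p = 0.72, and -0.26 without healthy replicate 3, and -0.11 under quantile normalization). The listed position has 233 base pairs of span and of exon, so it holds no intron and its assignment is uncertain, and 8 to 52 reads in a library stood behind these values.

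**Figure D5:**
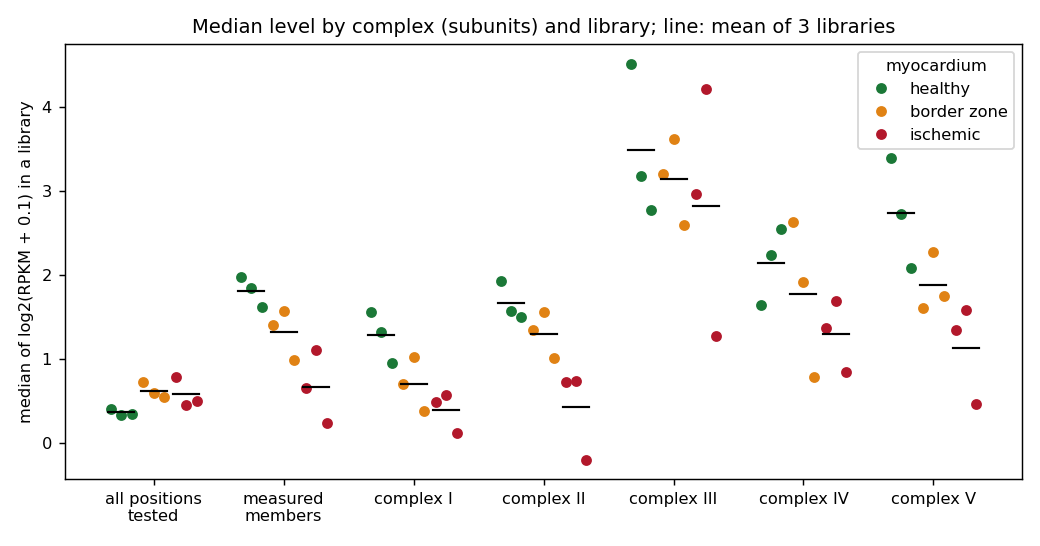
Median of log2(RPKM + 0.1) in each library (points, replicates 1 to 3 from left to right; lines, mean of 3) over all 2384 positions tested, the 37 measured members and the measured subunits of each complex. The members' medians are 1.62 to 1.98 in healthy, 0.99 to 1.57 in the border zone and 0.24 to 1.10 in ischemic libraries, without overlap between groups except that border zone replicate 3 lies below ischemic replicate 2.

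The border zone lay between the other groups, and the comparisons with healthy myocardium share the healthy libraries. The median over the measured members on the log2(RPKM + 0.1) scale was 1.98, 1.84 and 1.62 in healthy, 1.41, 1.57 and 0.99 in the border zone and 0.65, 1.10 and 0.24 in ischemic replicates, while the median over all positions was 0.34 to 0.41, 0.55 to 0.72 and 0.45 to 0.78. Healthy libraries were above all others for the members and below all others for all positions. In 27 of 37 members the mean RPKM ran from healthy over border zone to ischemic in falling order, against 22.3% of all positions tested. Counting either order, the border zone mean lay between the others in 28 of 37 members, against 61.3% of all positions.

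In border zone against healthy myocardium, 0 of 37 members rose and 0 fell (limma), where 5.79% of all positions rose and 0.21% fell. At an unadjusted p under 0.05, 6 members were lower and 0 higher, against 3.57% and 17.8% of all positions, and limma-voom on reads called 0. With pig as a block NDUFAB1 fell (adjusted p = 0.0476), from 1.53, 2.15 and 1.38 RPKM in healthy to 0.562, 1.11 and 0.456 in the border zone, which do not overlap. The members' median log2 fold change was -0.58, with 33 of 37 below 0, against a median of 0.22 and 36% below 0 for all positions. In 8 of 37 members the border zone libraries all lay below the healthy ones, against 6.71% of all positions, and in 0 of 37 all above, against 25.7%. The former included COX7A1, ATP5O, ATP5G1 and ATP5J2. The other 4 were NDUFAB1, NDUFB6, NDUFC1 and COX8H.

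In ischemic against border zone myocardium, 0 of 37 members rose and 0 fell (limma), where 0.168% of all positions rose and 0.965% fell. At an unadjusted p under 0.05, 5 members were lower and 0 higher, against 9.23% and 6.42% of all positions, and limma-voom called 0. The members' median log2 fold change was -0.45, against -0.04 for all positions, and 3 of 37 members, SDHB, COX5B and COX7A1, had all ischemic libraries below all border zone ones, against 11.5% of all positions, and 0 of 37 the reverse, against 8.56%. The median was -0.64 without border zone replicate 3 and -0.62 without ischemic replicate 2. Border zone replicate 3 had 26 reads at the median member, and the ischemic libraries 8 to 23.

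Genes that work beside the complexes were read from lists of electron carriers and membrane partners, of assembly and import factors, and of regulators of mitochondrial biogenesis. Of 9 measured carriers and partners 3 fell and 1 rose in ischemic against healthy myocardium, where 9.1% of all positions fell and 18.5% rose. ETFA and ETFB, the subunits of the flavoprotein that feeds electrons from fatty acid oxidation into the chain, went from 1.84 ± 0.153 to 0.782 ± 0.189 RPKM (-1.16 ± 0.22, adjusted p = 0.00797) and from 2.52 ± 0.512 to 1.09 ± 0.0589 (-1.12 ± 0.22, adjusted p = 0.00852). CKMT2, the muscle creatine kinase of mitochondria, fell from 5.89 ± 0.646 to 1.02 ± 1.3 RPKM (-3.07 ± 0.78, adjusted p = 0.0228, and 0.0578 to 0.0721 without any healthy replicate or ischemic replicate 1 or 3). UCP2, an uncoupling protein that leukocytes express too, rose from 0.381 ± 0.258 to 2.05 ± 0.379 RPKM (2.27 ± 0.39, adjusted p = 0.00516). It also rose in the border zone against healthy myocardium (1.94 ± 0.39, adjusted p = 0.0322), with adjusted p of 0.0586 to 0.127 without healthy replicate 2 or 3 or any border zone replicate. That rise was also lost with pseudocount 1 (0.0547), without a filter (0.0523), under quantile normalization (0.0766) and with only the 2 groups in the fit (0.0540). CYCS, cytochrome c, had -0.86 ± 0.39 (adjusted p = 0.135), and the phosphate carrier SLC25A3 had -1.19 ± 0.39 (adjusted p = 0.0527).

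Of 12 measured assembly and import factors 0 fell and 1 rose in ischemic myocardium, with a median log2 fold change of -0.16. Of all positions 9.1% fell and 18.5% rose, so 1 rise in a list this small is no result about the list. HSPD1, the chaperonin of the mitochondrial matrix, rose from 2.46 ± 0.787 to 4.83 ± 0.95 RPKM (0.97 ± 0.30, adjusted p = 0.0413). Its adjusted p was 0.0557 to 0.127 without healthy replicate 2 or 3, border zone replicate 1 or 3 or ischemic replicate 1 or 3, and 0.0564 with pig as a block. It was also lost with libraries scaled to the same median (0.0849), under quantile normalization (0.139), without a filter (0.0578) and with only the 2 groups in the fit (0.0746). Of 7 measured regulators 2 fell and 1 rose. TFAM, a packaging and transcription factor of mitochondrial DNA, averaged 1.51 ± 0.171 RPKM in healthy and 0.229 ± 0.397 in ischemic myocardium with 2 ischemic libraries at 0 (-3.01 ± 0.92, adjusted p = 0.0422). That call was lost without any healthy replicate, border zone replicate 3 or ischemic replicate 2 or 3 (0.0643 to 0.112), with pig as a block (0.0784), by limma-voom (0.156), under quantile normalization (0.0736), without a filter (0.0659) and with only the 2 groups in the fit (0.0558). PPARA, a receptor that drives genes of fatty acid oxidation, fell from 2.49 ± 0.919 to 0.468 ± 0.0747 RPKM (-2.13 ± 0.46, adjusted p = 0.0132). The related receptor gene PPARD rose from 0.668 ± 0.0327 to 2.34 ± 1.24 RPKM (1.54 ± 0.42, adjusted p = 0.0278, and 0.0605 to 0.0748 without any healthy replicate or ischemic replicate 1 or 3, and 0.0505 with pseudocount 1). ESRRA, an orphan receptor that drives respiratory genes, had -0.37 ± 0.38 (adjusted p = 0.5). Apart from UCP2, 0 genes of these 3 lists passed in the border zone against healthy, and 0 passed in ischemic against border zone myocardium (limma). Of all positions, 5.79% rose and 0.21% fell in the former comparison, and 0.168% rose and 0.965% fell in the latter.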

How the data were processed

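Nascent RNA of 9 libraries, healthy, border zone and ischemic myocardium of pigs 1 to 3, was measured by GRO-seq. The authors aligned reads to susScr3 with Bowtie, per the submitters' processing notes, and deposited RPKM values for 4882 transcript positions, scaled by the span per the file headers. No source used here names the counting program, the strand setting or the handling of duplicates. Library totals were fitted from the values of each library. The smallest product of value and span was first taken as 1 read, and the unit was then refitted to whole numbers. With these totals every nonzero value came out as a whole number of reads (within 0.01 reads). The totals were fitted to that end, so this is no independent check of them. The reads were used for limma-voom, pooled ratios and floors, which all rest on the 1-read assumption. Coordinates are those of the table, where the span equals end minus start. Symbols came from a RefSeq table of Sscrofa11.1, which matched 4000 of 4062 accessions.

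Values were taken to log2(RPKM + 0.1), and positions averaging 0.5 RPKM or more were tested with limma 3.58.1 (R 4.3.3), all 9 libraries and 3 groups in 1 fit, trend and robust eBayes, 2-sided, adjusted by Benjamini-Hochberg over 2384 positions. Folds come from means of logs. Exact tests used scipy 1.17.1, and plots matplotlib 3.10.9. Libraries were paired by the number that ends the sample title, as in Healthy_1, which was taken as the pig. Deviations of such paired libraries from the group means correlated with r from -0.037 to 0.179 across positions. For libraries of different pigs in different groups r ran from -0.156 to 0.082. The main fit and the exact permutation tests do not use the pairing. The members and gene lists were chosen with earlier results of these data known. Per-library values were given for called members, paralogue pairs and the 2 subunits of highest mean in each complex. Genes of the other lists were named where they passed, up to 3 in each direction. Values per library for COX8H, NDUFAF3 and NDUFAB1, and the mentions of CYCS, SLC25A3 and ESRRA, were added after their values were seen.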

Additional observations from a re-analysis of the deposited data

How the results depend on the processing

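Other pseudocounts (0.01 and 1), filters, scalings, pig as a block, another position for a gene, a fit on 2 groups, limma-voom and each library left out were tried. Members lower in ischemic against healthy myocardium numbered 13, with 20 under quantile normalization, 19 with libraries scaled to the same median, 18 with pig as a block, 8 with only the 2 groups in the fit and 1 to 16 when 1 library was left out. In the main fit 9.1% of all positions fell. That share was 10.5% under quantile normalization and 12.5% with libraries scaled to the same median. It was 10.3% with pig as a block, 6.33% with only the 2 groups, and 5.45% to 9.31% with 1 library left out. Over all positions, 442 were higher and 217 lower, and 337 higher and 297 lower with libraries scaled to the same median, and the total of 659 went to 346 with the filter at 2 RPKM and to 362 to 698 with 1 library left out.

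For border zone against healthy myocardium 143 positions passed, against 48 with pseudocount 1, 95 without a filter, 76 with the filter at 2 RPKM, 90 with equal medians, 85 with quantile normalization, 296 by limma-voom and 36 to 174 with 1 library left out. The count of members was 0, and 1 with pig as a block. For ischemic against border zone 27 positions passed, against 10 with pseudocount 1, 3 without a filter, 8 with equal medians, 5 with quantile normalization, 92 by limma-voom, 1 with 2 groups in the fit and 0 to 39 with 1 library left out. There the members' median of -0.45 moved to -0.30 with pseudocount 1 and -0.68 with the filter at 2 RPKM, and ran from -0.64 to -0.40 with 1 library left out. In ischemic against healthy myocardium, pig as a block ended the calls of COX5B, TFAM and HSPD1, added those of NDUFA8, NDUFAB1, NDUFB2, NDUFB8, NDUFC1 and NDUFA4 named in the report, and changed no other call of a measured member in that comparison.

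Changes of sign in ischemic against healthy myocardium concerned values that had not passed, except ATP5H, which had 2.72 at its other position. By limma-voom COX6A1 had 0.030 and ATP5I 0.32, and under quantile normalization UQCRB had -0.11. With 1 library left out, NDUFAF3 ran from -1.02 (without ischemic replicate 3) to 0.017, UQCR10 from -3.01 to 0.17 (without ischemic replicate 3), UQCRB from -0.26 (without healthy replicate 3) to 1.26, COX6A1 from -0.43 to 0.26, COX10 from -0.55 to 0.17 and ATP5I from -0.35 to 0.50. In border zone against healthy, COX5B had 0.016 by limma-voom and ran from -0.41 to 0.25 with 1 library left out. At its other position ATP5H had 0.33 there and 2.38 in ischemic against border zone. Apart from the smaller number of libraries or positions tested, the cause was not tested. The median member had 8 to 23 reads in the ischemic libraries, against 78 to 141 in the healthy ones.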
